A study of Homo sapiens with 2 samples.

Results

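The transcripts described here encode the glycosyltransferases that start, extend and cap the sugar chains of glycoproteins and glycolipids. Members were chosen by symbol alone. They are the sialyltransferase families ST3GAL, ST6GAL, ST6GALNAC and ST8SIA, the fucosyltransferases FUT, the GalNAc-transferases GALNT, and the chain-building families B3GNT, B4GALT, B3GALT and GCNT. The rule took 77 of the 56638 genes of the table, in 10 families. Of these 77, 60 had at least 10 counts over both libraries, 10 had 1 to 9 counts and 7 had none. RNA-seq had been run on TFK1, a human cholangiocarcinoma (CCA) cell line from a bile duct tumor. The sh-NC cells carried a negative control shRNA, and the sh-MBD2 cells carried an shRNA that knocks down MBD2, a protein that binds methylated CpG dinucleotides. Both shRNAs were delivered by lentivirus, the methods describe puromycin or G-418 to select infected cells, the labels list no other treatment, and the labels do not say which shRNA against MBD2 was used. The comparison addresses which transcripts differ when MBD2 is lowered. Each condition had 1 library of 1 cell line, so no test between conditions was possible. All intervals below are 95% Clopper-Pearson intervals that cover counting error only, and they include neither culture-to-culture nor library-to-library variation.

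In these 2 libraries ST6GAL2 transcripts were far lower in sh-MBD2 than in sh-NC cells, and B4GALT4, B3GNT3, ST8SIA4 and GALNT7 were lower by smaller amounts. ST3GAL1, ST3GAL4, GALNT6, GALNT9, GALNT18, B3GNT5 and B3GALT5 were higher. Among members that led their families in both libraries, the log2 fold change (log2FC, sh-MBD2 over sh-NC) was 0.39 for B4GALT1 and 0.38 for ST3GAL5. It was 0.32 for ST6GALNAC4, 0.27 for B3GALT6, -0.00 for GALNT10, -0.03 for FUT11 and -0.08 for GCNT3, against -0.75 for ST8SIA4. Summed over all 77 members, the level was 1568 TPM (transcript level per gene length, scaled to the same total in each library) in sh-MBD2 and 1521 TPM in sh-NC.

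Sugar chains on serine and threonine begin when a GALNT enzyme attaches GalNAc, and GCNT, B3GNT, B3GALT and B4GALT enzymes then add branches and lactosamine. Sialyl- and fucosyltransferases usually cap these chains, as they do those of N-glycans and glycolipids. In biliary epithelium the capped mucin chains include sialyl Lewis a, the antigen behind a serum marker used in biliary and pancreatic cancer, which needs a B3GALT, an ST3GAL and the Lewis fucosyltransferase FUT3.

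The libraries held 14728814 counts in sh-MBD2 and 14467406 counts in sh-NC. MBD2 itself had 365 counts (15.6 TPM) in sh-MBD2 and 1013 counts (44.6 TPM) in sh-NC, 35.8% of the sh-NC level after scaling, with a log2FC of -1.48 and an interval from -1.66 to -1.31. Keratins of biliary epithelium were abundant, with KRT7 at 1160 and 1327 TPM in sh-MBD2 and sh-NC. All 9 epithelial markers had at least 10 counts, but KRT19 reached only 15.0 and 9.04 TPM, and CFTR only 6 and 11 counts. No leukocyte (8 genes), endothelial (4 genes) or fibroblast (6 genes) marker passed 6 counts in either library. Of 5 hepatocyte markers, SERPINA1 had the most, with 39 counts in sh-MBD2 and 11 in sh-NC, and APOA2 and TTR were at 0 in both. In bulk RNA, fewer cells that express a gene and less RNA per cell cannot be told apart.

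Among the 60 members with at least 10 counts, 1 (1.67%) had a log2FC above 1 and 4 (6.67%) had one below -1. Among all 17545 genes with at least 10 counts, the shares were 5.48% and 5.07%. The member above 1 was GALNT9, and those below -1 were ST6GAL2, B3GALT1, GALNTL6 and FUT1. The interval lay wholly above 0 for 19 members (31.7%, against 19.7% of all genes) and wholly below 0 for 11 (18.3%, against 18.4%). Because deeper genes have narrower intervals, the same shares were taken over genes that reach 100 counts in either library. There, 17 of 40 members (42.5%) lay wholly above 0, against 25.4% of genes, and 9 (22.5%) lay wholly below, against 23.8%. The median log2FC was 0.10 over the 60 members and -0.01 over all genes. The share of members wholly above 0 was thus higher than the background and the share wholly below was close to it, a difference that was not tested.

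**Figure D1:**
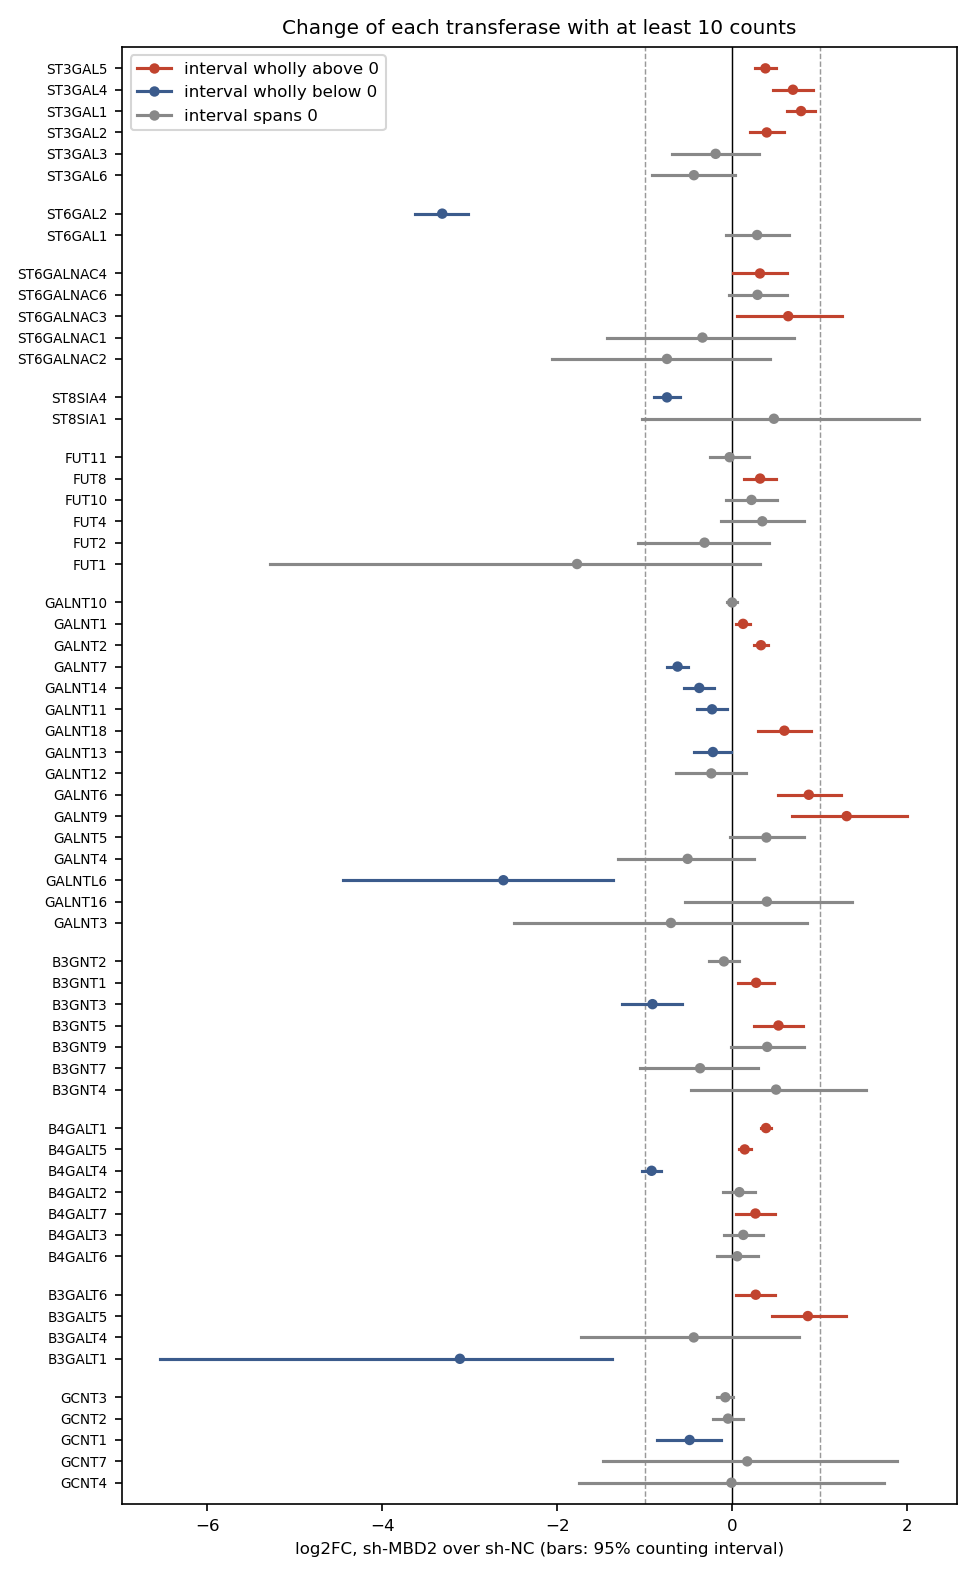
Change of each of the 60 members with at least 10 counts. The horizontal axis is log2FC, sh-MBD2 over sh-NC, each point is 1 gene, bars are 95% counting intervals, families are separated by gaps, and dashed lines mark 1 and -1. ST6GAL2 lies at -3.31 with a narrow bar, while B3GALT1 and FUT1, at -3.11 and -1.77, have the widest bars on the lower side.

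ST6GAL enzymes attach sialic acid to carbon 6 of galactose at the end of N-glycans and related chains. ST6GAL1 is the widely expressed enzyme of this kind, and ST6GAL2 is its close relative, known mainly from brain. ST6GAL2 (ENSG00000144057) had 101 counts (2.43 TPM) in sh-MBD2 and 1003 counts (24.7 TPM) in sh-NC, a log2FC of -3.31 with an interval from -3.63 to -3.02. The sh-MBD2 level was 10.1% of the sh-NC level, and by log2FC ST6GAL2 ranked 4 from the lowest of the 10917 genes that reach 100 counts in either library. ST6GAL1 (ENSG00000073849) had 146 counts (5.22 TPM) and 119 counts (4.36 TPM), a log2FC of 0.29 whose interval of -0.07 to 0.65 spans 0. The leading transcript of the pair therefore changed: ST6GAL2 made up 85.0% of ST6GAL TPM in sh-NC and 31.8% in sh-MBD2, where ST6GAL1 made up 68.2%. The ratio of ST6GAL2 to ST6GAL1 TPM was 5.67 in sh-NC and 0.465 in sh-MBD2. An RNA annotated inside ST6GAL2 on the same strand, ST6GAL2-IT1, had 0 counts in sh-MBD2 and 12 in sh-NC. Of the 5 genes within 1 Mb of ST6GAL2 with at least 10 counts, ST6GAL2-IT1 was the one below -1, beside 5.07% of all genes. UXS1, which makes UDP-xylose, had 1207 and 823 counts with a log2FC of 0.54.

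MBD2 binds methylated CpG, so the CpG sites around the RefSeq start of the genes with a log2FC past 1 or -1 are shown, with ST6GAL1 beside ST6GAL2 for comparison. Each window is RefSeq sequence of build GRCh38.p14, from 250 bases before to 50 after the annotated start, read 5′ to 3′ on the gene's strand, with each CpG in capitals. Methylation was not measured here. Starts differ between annotations. The RefSeq start of B3GALT1 lies 576 kb upstream of its GENCODE start, so its window is not at the start of the gene as annotated there. The other 5 RefSeq starts are within 1.15 kb of their GENCODE starts. GALNT9 spans a longer stretch in the deposited table than in GENCODE, so its window may not be at the start of the gene as counted. RefSeq promoters were matched to 54 of the 77 members (70.1%) by Ensembl identifier, or by symbol where the identifier had no match. These are too few for a summary over all members, and all those past 1 or -1 are among them. ST6GAL2 is at chr2:106885979-106886278 on the minus strand, ST6GAL1 at chr3:186930276-186930575 on the plus strand, GALNT9 at chr12:132329540-132329839 on the minus strand, GALNTL6 at chr4:171813154-171813453 on the plus strand, B3GALT1 at chr2:167292751-167293050 on the plus strand and FUT1 at chr19:48755309-48755608 on the minus strand.
ST6GAL2: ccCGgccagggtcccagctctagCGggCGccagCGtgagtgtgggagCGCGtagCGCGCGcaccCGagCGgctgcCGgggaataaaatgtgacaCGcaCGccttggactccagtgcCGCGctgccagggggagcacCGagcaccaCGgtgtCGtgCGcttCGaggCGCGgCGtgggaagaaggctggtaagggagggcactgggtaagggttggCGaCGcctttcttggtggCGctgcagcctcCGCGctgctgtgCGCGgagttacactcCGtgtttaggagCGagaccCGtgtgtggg
ST6GAL1: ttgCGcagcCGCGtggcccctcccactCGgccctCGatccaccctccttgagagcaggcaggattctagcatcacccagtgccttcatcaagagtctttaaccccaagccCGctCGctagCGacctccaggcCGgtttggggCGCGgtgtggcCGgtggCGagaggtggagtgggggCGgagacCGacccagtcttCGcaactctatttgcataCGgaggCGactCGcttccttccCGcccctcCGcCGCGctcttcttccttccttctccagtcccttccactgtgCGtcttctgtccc
GALNT9: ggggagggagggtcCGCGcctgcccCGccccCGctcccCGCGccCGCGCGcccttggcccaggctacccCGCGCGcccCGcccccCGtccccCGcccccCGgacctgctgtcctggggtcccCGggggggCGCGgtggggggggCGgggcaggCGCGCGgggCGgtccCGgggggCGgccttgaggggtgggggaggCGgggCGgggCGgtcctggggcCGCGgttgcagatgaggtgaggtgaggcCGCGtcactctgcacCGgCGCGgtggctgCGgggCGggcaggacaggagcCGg
GALNTL6: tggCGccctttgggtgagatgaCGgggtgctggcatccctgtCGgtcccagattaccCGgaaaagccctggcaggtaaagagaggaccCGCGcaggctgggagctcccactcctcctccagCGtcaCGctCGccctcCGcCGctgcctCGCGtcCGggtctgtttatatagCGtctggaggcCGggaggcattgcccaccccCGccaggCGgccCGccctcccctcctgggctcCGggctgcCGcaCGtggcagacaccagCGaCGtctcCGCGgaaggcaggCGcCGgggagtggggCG
B3GALT1: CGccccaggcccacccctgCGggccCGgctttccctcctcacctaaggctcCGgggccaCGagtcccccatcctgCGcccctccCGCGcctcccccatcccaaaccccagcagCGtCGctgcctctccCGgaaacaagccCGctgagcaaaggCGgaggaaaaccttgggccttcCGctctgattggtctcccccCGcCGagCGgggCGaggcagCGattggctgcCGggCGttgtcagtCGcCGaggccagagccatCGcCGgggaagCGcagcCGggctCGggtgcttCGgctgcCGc
FUT1: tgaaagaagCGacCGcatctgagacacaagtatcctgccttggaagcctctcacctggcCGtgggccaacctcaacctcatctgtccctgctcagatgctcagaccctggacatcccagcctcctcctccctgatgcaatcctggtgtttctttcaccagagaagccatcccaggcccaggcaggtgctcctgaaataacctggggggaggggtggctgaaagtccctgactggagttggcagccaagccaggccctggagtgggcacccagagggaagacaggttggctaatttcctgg

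The ST6GAL2 window holds 34 CpG and the ST6GAL1 window 24. The median over the 27305 RefSeq promoters of the same length was 14, and 84.7% of them hold fewer CpG than ST6GAL2. GALNT9 has 39 CpG, B3GALT1 30 and GALNTL6 29, while FUT1 has 3. FUT1 is the one of these whose counting interval spans 0. The windows of ST6GAL2, B3GALT1 and GALNTL6 (intervals wholly below 0) and of GALNT9 (wholly above 0) thus hold more CpG than the median. Other members with intervals off 0 lie on both sides of it. Of those below 0, GALNT13 holds 1 CpG and GALNT11 2, while B4GALT4 holds 34. Of those above 0, FUT8 holds 1 and GALNT1 9, while B4GALT1 holds 39. Windows of members with little change lie on both sides of the median. GALNT10 (log2FC -0.00) holds 51 CpG and B4GALT5 (0.14) holds 47, while GCNT3 (-0.08) holds 3. A link between CpG number and change was not tested. A GC box (GGGCGG, or CCGCCC on the other strand) occurs 9 times in the GALNT9 window, 2 times in that of ST6GAL1, 1 time in that of GALNTL6 and in none of ST6GAL2, B3GALT1 and FUT1. It is present in 44.6% of all promoters. TATAAA, or TTTATA on the other strand, occurs 1 time in the GALNTL6 window and in 11.9% of all promoters. These matches describe letters and not bound sites.

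ST3GAL enzymes attach sialic acid to carbon 3 of galactose. All 6 members had at least 10 counts, 4 of them with intervals wholly above 0 and none wholly below. Among all genes with at least 10 counts the shares were 19.7% and 18.4%. They were 25.4% and 23.8% among genes that reach 100 counts in either library, and the difference was not tested. ST3GAL1, which caps the core 1 O-glycan, had 853 counts (21.4 TPM) in sh-MBD2 and 491 counts (12.6 TPM) in sh-NC, a log2FC of 0.79 (0.63 to 0.95). ST3GAL4, which acts mainly on lactosamine chains, had 409 counts (36.4 TPM) and 251 counts (22.9 TPM), a log2FC of 0.69 (0.47 to 0.93). Part of ST3GAL4 overlaps KIRREL3 on the opposite strand, which had 53 and 111 counts. ST3GAL5, the GM3 ganglioside synthase and the most abundant member, had 1401 counts (70.3 TPM) and 1070 counts (55.1 TPM), a log2FC of 0.38 (0.26 to 0.50). ST3GAL2, which sialylates gangliosides and core 1 chains, had 528 counts (17.3 TPM) and 399 counts (13.4 TPM), a log2FC of 0.39 (0.20 to 0.59). The 2 remaining members were lower in sh-MBD2 with intervals that span 0. ST3GAL3 had 67 and 76 counts, and ST3GAL6 had 66 and 89 counts. ST3GAL6 lies opposite the much more abundant DCBLD2, with 27801 and 15972 counts, and whether counting used strand is not given in the sources used here.

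The summed level of ST3GAL transcripts was 154 TPM in sh-MBD2 and 115 TPM in sh-NC, while that of ST6GAL transcripts was 7.65 and 29.1 TPM. Their ratio was 20.1 in sh-MBD2 and 3.94 in sh-NC. The sum over all 20 sialyltransferases was 214 TPM in sh-MBD2 and 201 TPM in sh-NC, a log2 ratio of 0.09, but 4623 and 4844 counts, a log2 ratio of -0.08 (-0.13 to -0.02) when not taken per length. The direction of the total thus depends on the unit. ST6GAL2 held 12.3% of sialyltransferase TPM in sh-NC and 1.14% in sh-MBD2. ST3GAL5 led in both libraries, with 32.9% in sh-MBD2 and 27.3% in sh-NC.

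**Figure D2:**
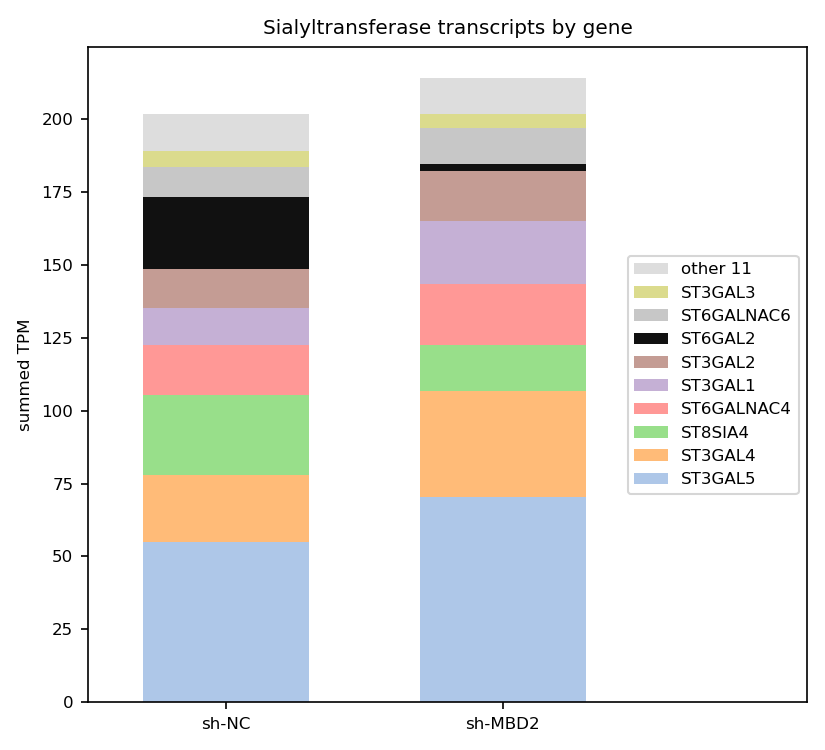
Sialyltransferase transcripts in each library. The vertical axis is summed TPM, each column is 1 library, and stacked blocks are genes, with the 11 least abundant together. The columns reach 201 TPM in sh-NC and 214 TPM in sh-MBD2, and the black block of ST6GAL2 is 24.7 TPM in sh-NC and 2.43 TPM in sh-MBD2.

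ST8SIA enzymes join sialic acids to each other. ST8SIA4, which builds polysialic acid chains, was the only member of its family above 10 counts in any library. It had 576 counts (16 TPM) in sh-MBD2 and 960 counts (27.3 TPM) in sh-NC, a log2FC of -0.75 (-0.90 to -0.60). ST8SIA1, the GD3 ganglioside synthase, had 10 and 7 counts, and the other 4 members had at most 2 counts in a library. For these 5 genes no difference was detectable at this depth.

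ST6GALNAC enzymes attach sialic acid to carbon 6 of GalNAc. The most abundant, ST6GALNAC4, had 202 counts (20.9 TPM) in sh-MBD2 and 161 counts (17.1 TPM) in sh-NC, a log2FC of 0.32 whose interval of 0.01 to 0.63 barely clears 0. ST6GALNAC6, which acts on gangliosides, had 171 counts (12.2 TPM) and 139 counts (10.1 TPM), with an interval from -0.04 to 0.62. ST6GALNAC3 had 63 and 40 counts, a log2FC of 0.64 (0.05 to 1.26). The remaining members were scarce: ST6GALNAC1, which makes sialyl-Tn, had 15 and 19 counts, ST6GALNAC2 had 10 and 17 counts, and ST6GALNAC5 had 0 and 1.

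Of the 11 fucosyltransferases, 6 had at least 10 counts. FUT11, the most abundant per length, had 346 counts (25.1 TPM) in sh-MBD2 and 351 counts (26.2 TPM) in sh-NC. FUT8, which adds the core fucose of N-glycans, had 570 counts (19.3 TPM) and 454 counts (15.8 TPM), and its log2FC of 0.32 (0.14 to 0.50) was the only one of the family with an interval off 0. FUT10 had 217 and 185 counts. These transcripts of the core and more distant enzymes held most of the family's 58.7 and 55.0 summed TPM.

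The fucosyltransferases of Lewis and H antigens were scarce in both libraries. FUT4, which makes Lewis x type structures, had 87 counts (2.52 TPM) in sh-MBD2 and 68 counts (2.02 TPM) in sh-NC, with an interval from -0.13 to 0.83. FUT2, the secretor enzyme, had 29 and 36 counts. FUT1, the H antigen enzyme, had 2 and 8 counts, a log2FC of -1.77 whose interval of -5.28 to 0.32 spans 0. FUT3, FUT6, FUT7 and FUT9 had 0 counts in both libraries, which allows up to 0.205 CPM (counts scaled to library size) in sh-MBD2 and 0.206 in sh-NC, and FUT5 had 1 and 0. The Lewis enzyme FUT3, needed for sialyl Lewis a, was thus not detected at this depth in either condition.

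GALNT enzymes begin mucin-type O-glycans, and 16 of the 19 members had at least 10 counts. GALNT10, GALNT1 and GALNT2 were the most abundant, and together they made up 73.3% of the family's TPM in sh-MBD2 and 68.0% in sh-NC. GALNT10, which prefers peptides that already carry GalNAc, had 4862 counts (143 TPM) in sh-MBD2 and 4834 counts (146 TPM) in sh-NC, a log2FC of -0.00 (-0.06 to 0.06), or 0.01 with DESeq2 size factors. GALNT1, a broadly expressed initiator, had 2915 counts (133 TPM) and 2658 counts (124 TPM), a log2FC of 0.12 (0.05 to 0.20). GALNT2, also broadly expressed, had 2912 counts (114 TPM) and 2304 counts (92.8 TPM), a log2FC of 0.33 (0.25 to 0.41). Summed TPM of the family was nearly the same in both libraries, at 531 and 533.

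Of the other 13 members with at least 10 counts, 3 had intervals wholly above 0 and 5 wholly below, beside 19.7% and 18.4% of all genes. GALNT7, which also follows earlier GalNAc, had 881 counts (35.8 TPM) in sh-MBD2 and 1350 counts (56.2 TPM) in sh-NC, a log2FC of -0.62 (-0.75 to -0.50). GALNT14 had 496 counts (31.7 TPM) and 640 counts (42.0 TPM), a log2FC of -0.38 (-0.55 to -0.21). GALNT11, which glycosylates Notch, had 531 and 619 counts, and GALNT13, an isoform known from neurons, had 348 and 403 counts, with log2FC of -0.23 and -0.22. The lower members are therefore mostly of middle abundance. GALNT18 had 230 counts (16.1 TPM) and 151 counts (10.8 TPM), a log2FC of 0.60 (0.30 to 0.90). GALNT6, a close relative of GALNT3 found in several carcinomas, had 185 counts (6.21 TPM) and 100 counts (3.45 TPM), a log2FC of 0.88 (0.52 to 1.24). GALNT6 overlaps SLC4A8 on the opposite strand, which had 43 and 95 counts and so differed in the other direction.

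GALNT9, known mainly from brain, had 73 counts (5.30 TPM) in sh-MBD2 and 29 counts (2.16 TPM) in sh-NC. Its log2FC of 1.31 (0.68 to 2.0) was the largest increase among the members with at least 10 counts. GALNTL6 had 5 counts (0.223 TPM) and 33 counts (1.51 TPM), a log2FC of -2.62 (-4.45 to -1.37). GALNTL6 and GALNT7 are neighbours in the table's coordinates, 127 kb apart, and both were lower. The antisense RNA RP11-10K16.1 that overlaps GALNT7 had 21 and 51 counts. GALNT5 had 111 and 84 counts, GALNT12 had 98 and 115, GALNT4 had 26 and 37, GALNT16 had 24 and 18, and GALNT3, which glycosylates FGF23, had 6 and 10, all with intervals that span 0. GALNT4 lies inside POC1B on the same strand (491 and 634 counts), so its reads are uncertain. GALNT15 had 0 counts and 1 count, and GALNT8 and GALNTL5 had none.

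**Figure D3:**
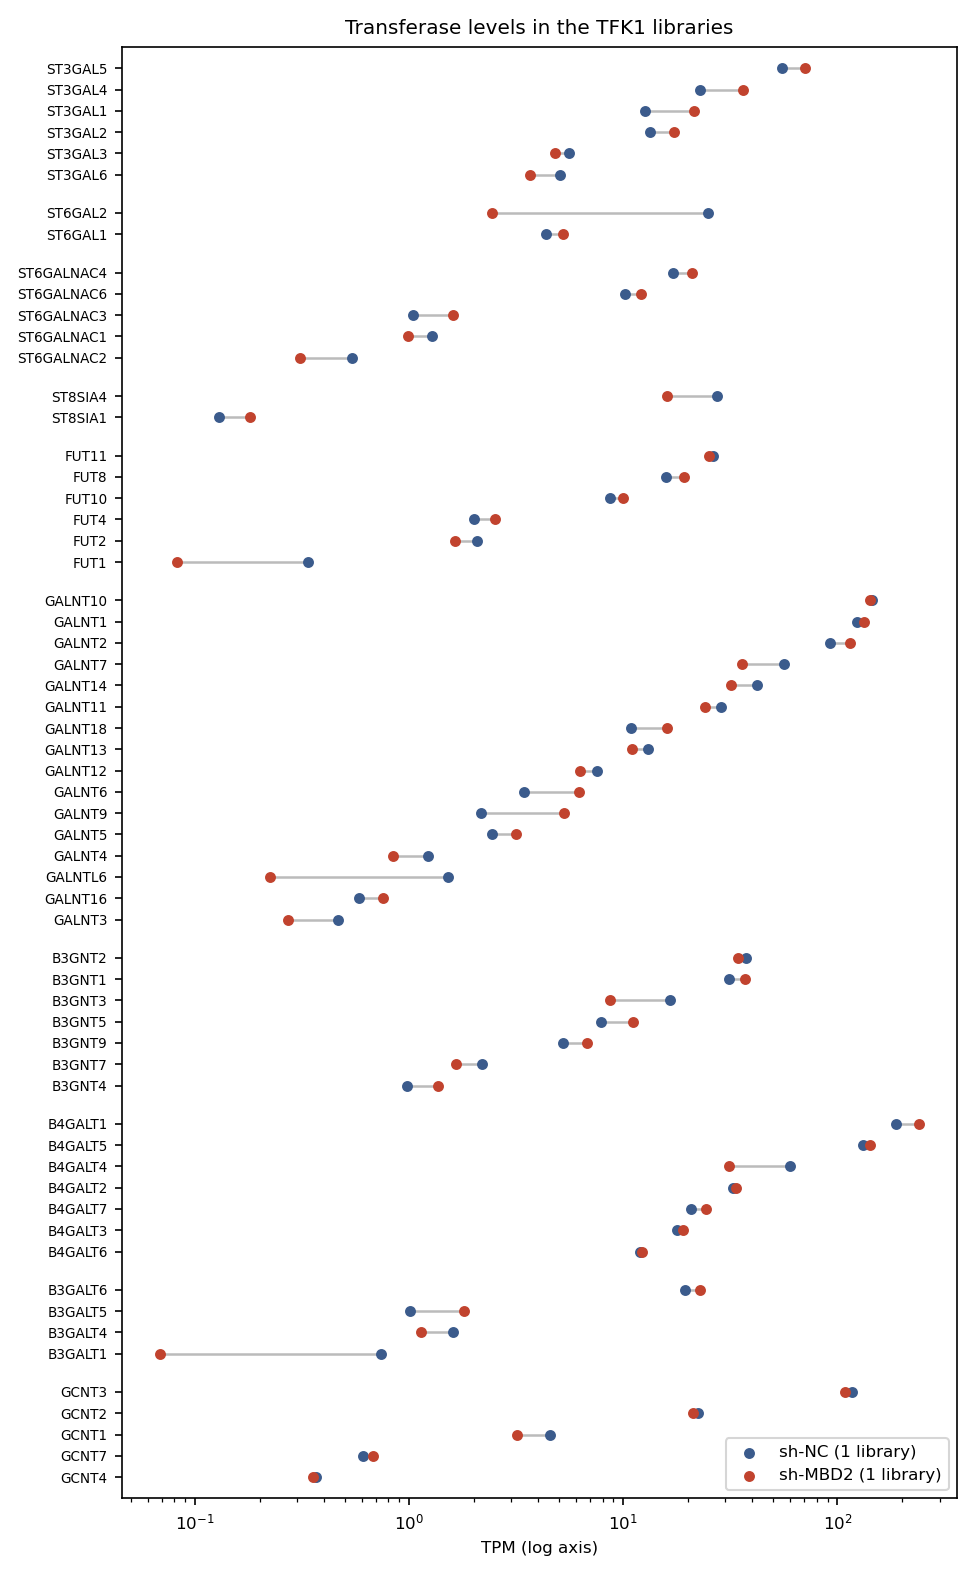
Level of each of the 60 members in both libraries. The horizontal log axis is TPM, and each pair of joined points is 1 gene in sh-NC (blue) and sh-MBD2 (red). GALNT10, GALNT1, B4GALT1, B4GALT5 and GCNT3 lie above 100 TPM in both libraries, and the widest gaps belong to ST6GAL2, B3GALT1 and GALNTL6.

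B4GALT enzymes add galactose to GlcNAc and so make the lactosamine that is later sialylated or fucosylated. All 7 members had at least 10 counts, 3 with intervals wholly above 0 and 1 wholly below. Among genes that reach 100 counts in either library the shares were 25.4% and 23.8%. B4GALT1, the main enzyme of N-glycans, had 5782 counts (241 TPM) in sh-MBD2 and 4396 counts (188 TPM) in sh-NC, a log2FC of 0.39 (0.33 to 0.44), and was the most abundant of all 77 members. B4GALT5, which makes lactosylceramide, had 3848 counts (143 TPM) and 3463 counts (132 TPM), a log2FC of 0.14 (0.08 to 0.21). B4GALT7, which builds the linker of glycosaminoglycans, had 369 and 305 counts, a log2FC of 0.27 (0.04 to 0.49). B4GALT4, an enzyme of keratan sulfate type chains, went the other way, with 1031 counts (31.1 TPM) and 1941 counts (60.1 TPM), a log2FC of -0.92 (-1.03 to -0.81). B4GALT4 ranked 133 from the lowest of the same 10917 genes. The ratio of B4GALT1 to B4GALT4 TPM was 7.73 in sh-MBD2 and 3.12 in sh-NC. B4GALT2 (507 and 476 counts), B4GALT3 (345 and 314) and B4GALT6 (310 and 296), all with intervals that span 0, had log2FC between 0.06 and 0.13.

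The genes beside B4GALT4 were also lower in sh-MBD2 on one side. UPK1B, which encodes a uroplakin of epithelial plaques, lies 6.58 kb away and had 368 counts in sh-MBD2 and 942 in sh-NC, a log2FC of -1.36 (-1.54 to -1.19). IGSF11, a cell adhesion gene 65.7 kb away, had 51 and 338 counts, a log2FC of -2.73 (-3.19 to -2.31). ARHGAP31, a GTPase-activating gene 53.3 kb away on the other side, had 96 and 46 counts, a log2FC of 1.04 (0.53 to 1.59). Of the 12 neighbours within 1 Mb with at least 10 counts, these were the only ones past 1 or -1. Among all genes 5.48% were above 1 and 5.07% below -1. Around GALNTL6, 2 of 8 such neighbours were below -1 and 1 above 1. Around GALNT9 it was 2 and 1 of 30, and around B3GALT1 0 and 0 of 4. The B4GALT4 locus was picked after its values were seen, and no difference was tested.

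**Figure D4:**
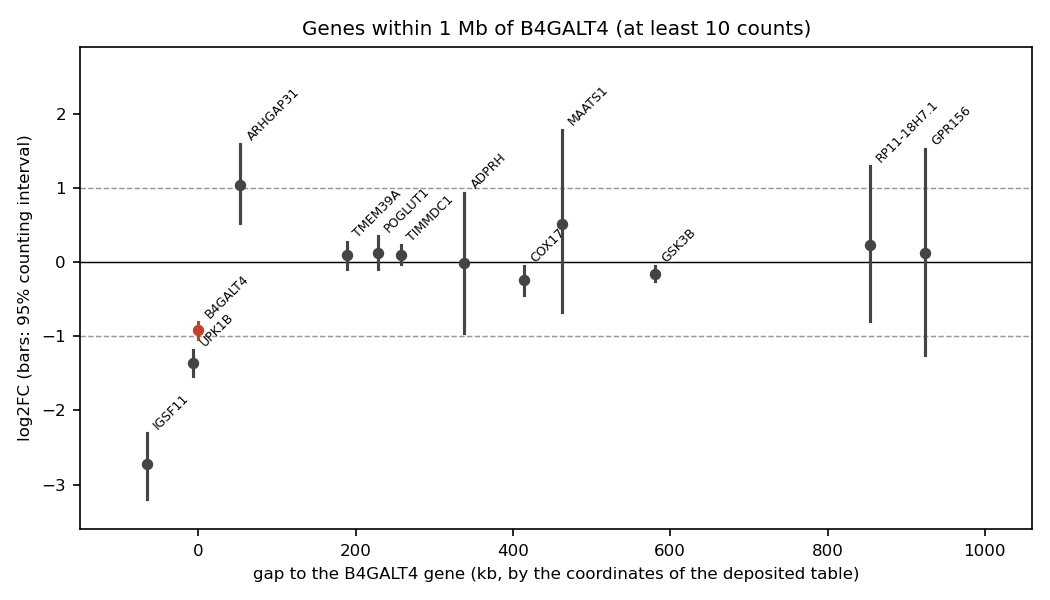
Genes within 1 Mb of B4GALT4. The horizontal axis is the gap to B4GALT4 in kb by the coordinates of the deposited table, the vertical axis is log2FC, sh-MBD2 over sh-NC, and bars are 95% counting intervals. IGSF11, UPK1B and B4GALT4 lie below 0 side by side, ARHGAP31 lies above 1, and the 9 genes beyond it lie between -1 and 1.

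B3GNT enzymes add GlcNAc to galactose, B3GALT enzymes add galactose in the linkage of type 1 chains and related structures, and GCNT enzymes add branches. B3GNT3, which extends core 1 O-glycans, had 110 counts (8.64 TPM) in sh-MBD2 and 206 counts (16.6 TPM) in sh-NC, a log2FC of -0.91 (-1.26 to -0.57). B3GNT5, which starts the lacto-series glycolipids, had 263 counts (11.2 TPM) and 181 counts (7.88 TPM), a log2FC of 0.53 (0.25 to 0.81). B3GNT3 thus exceeded B3GNT5 in sh-NC, with a TPM ratio of 2.11, but not in sh-MBD2, at 0.775. B3GNT2, the main polylactosamine enzyme, had 541 counts (34.2 TPM) and 574 counts (37.3 TPM), with an interval that spans 0. The gene listed under the older symbol B3GNT1 (ENSG00000174684, now B4GAT1, an enzyme of the dystroglycan chain) had 438 counts (37.0 TPM) and 360 counts (31.2 TPM), a log2FC of 0.27 (0.07 to 0.48). B3GNT9, B3GNT7 and B3GNT4 had 16 to 113 counts with intervals that span 0, and B3GNT8 and B3GNT6, the core 3 enzyme, had 2 to 3.

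Of the B3GALT genes, B3GALT6, a glycosaminoglycan linker enzyme, was the most abundant, with 365 counts (22.9 TPM) in sh-MBD2 and 301 counts (19.3 TPM) in sh-NC, a log2FC of 0.27 (0.05 to 0.49). B3GALT5, which makes the type 1 chain of Lewis a antigens, had 136 counts (1.81 TPM) and 74 counts (1.01 TPM), a log2FC of 0.86 (0.45 to 1.3). B3GALT1, another type 1 chain enzyme, had 2 counts (0.0687 TPM) and 21 counts (0.740 TPM), a log2FC of -3.11 with an interval from -6.54 to -1.37. The 2 enzymes thus differed in opposite directions, both from low levels. B3GALT4, a ganglioside enzyme, had 11 and 15 counts, and B3GALT2 had 2 and 4.

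GCNT3, the mucin-type branching enzyme, dominated its family with 1880 counts (108 TPM) in sh-MBD2 and 1973 counts (117 TPM) in sh-NC, a log2FC of -0.08 (-0.17 to 0.01). GCNT2, the I-branch enzyme, had 549 counts (21.2 TPM) and 564 counts (22.4 TPM), with an interval that spans 0. GCNT1, the core 2 enzyme of most cells, had 109 counts (3.19 TPM) and 152 counts (4.57 TPM), a log2FC of -0.49 (-0.86 to -0.12). GCNT1 was the one GCNT gene with an interval off 0, and GCNT7 and GCNT4 had 7 to 8 counts in each library, while GCNT6 had 0 and 1.

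By family, the median log2FC was 0.39 for ST3GAL, 0.29 for ST6GALNAC, 0.27 for B3GNT, 0.13 for B4GALT and 0.10 for FUT. It was -0.05 for GCNT, -0.09 for B3GALT, -0.11 for GALNT, -0.13 for ST8SIA and -1.51 for ST6GAL. The medians of ST6GAL and ST8SIA rest on 2 tested members each. With a filter of 1 count, the medians of ST8SIA, ST6GALNAC and B3GNT turned to 0.48, -0.03 and -0.01, and with a filter of 100 counts those of B3GALT and GALNT turned to 0.57 and 0.06, so these 5 have no stable direction. Summed TPM in sh-MBD2 and sh-NC was 504 and 462 for B4GALT, 134 and 145 for GCNT, 101 and 102 for B3GNT, 36.0 and 30.1 for ST6GALNAC, 26.0 and 22.9 for B3GALT, and 16.5 and 27.6 for ST8SIA.

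The genes that supply sugars to these enzymes and act beside them were taken from lists by function. Among 19 genes of sugar nucleotide synthesis with at least 10 counts, 1 was above 1 and none below -1, and the median log2FC was 0.08. The gene above 1 was GFPT2, an entry enzyme of the hexosamine pathway, with 1598 counts (90.4 TPM) in sh-MBD2 and 486 counts (28.2 TPM) in sh-NC, a log2FC of 1.71 (1.56 to 1.86). UGP2, which makes UDP-glucose, was the most abundant of them at 115 and 102 TPM. Of the 8 Golgi sugar nucleotide transporters, led by SLC35C2 at 48.4 and 51.1 TPM, and the 6 N-glycan branching genes, led by MGAT4B at 111 and 93.3 TPM, none passed 1 or -1. Of 9 genes for sialidases, fucosidases and related enzymes, led by GLB1, a lysosomal galactosidase, at 64.8 and 60.4 TPM, none passed either. Apart from GFPT2, these lists held no gene past 1 or -1, beside 5.48% above and 5.07% below among all genes. Lists this small cannot be told apart from those shares, and no difference was tested.

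Among 8 other O-glycan and glycolipid transferases, led by C1GALT1C1 at 57.1 and 61.3 TPM, B4GALNT2, the Sda antigen enzyme, was above 1, with 13 counts in sh-MBD2 and 1 in sh-NC, a log2FC of 3.16 with an interval from 0.96 to 9.10. Among 8 genes of protein O-fucosylation and Notch glycosylation, led by POFUT1 at 67.6 and 61.0 TPM, MFNG, a Fringe enzyme, was below -1, with 9 and 22 counts (-2.60 to -0.12). Of 15 carbohydrate sulfotransferases, 4 were above 1 and 1 below -1, beside 5.48% and 5.07% of all genes, a difference that was not tested. CHST11, a chondroitin sulfotransferase, had 920 counts (28.2 TPM) and 403 counts (12.7 TPM), a log2FC of 1.18 (1.01 to 1.35). CHST3, also a chondroitin enzyme, had 27.2 and 26.2 TPM. CHST1, CHST2 and CHST4, which sulfate galactose or GlcNAc, had 38 and 4, 27 and 4, and 11 and 1 counts, with intervals from 1.77 to 5.19, 1.23 to 4.72 and 0.67 to 8.88, so 3 of the 4 above 1 rest on 1 to 4 counts in sh-NC. GAL3ST4 had 8 and 17 counts, and its interval from -2.52 to 0.19 spans 0.

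Of the 11 carriers and readers of sialylated and fucosylated glycans reported here, 3 were below -1, beside 5.07% of all genes. Intervals lay wholly above 0 for 5 and wholly below for 5, beside 19.7% and 18.4% of all genes. Among genes that reach 100 counts in either library these shares were 25.4% and 23.8%. The list median was 0.14. The list was drawn up with earlier results of these data known, and no difference from these shares was tested. CEACAM5 had 5 counts (0.304 TPM) in sh-MBD2 and 177 counts (11.1 TPM) in sh-NC, a log2FC of -5.02 (-6.80 to -3.90). CEACAM6 had 374 counts (24.2 TPM) and 1485 counts (98.7 TPM), a log2FC of -2.0 (-2.17 to -1.83), and MUC5AC, a secreted mucin, had 880 counts (38.4 TPM) and 2080 counts (93.0 TPM), a log2FC of -1.25 (-1.37 to -1.14). These adhesion and mucin proteins are heavily glycosylated carriers of such chains. Other carriers went the other way: CD44 had 8330 and 5767 counts, a log2FC of 0.52 (0.47 to 0.57). PODXL was at 0.66, MUC1 at 0.67 and MUC16 at 0.22, and the reader LGALS9 was at 0.58, all with intervals wholly above 0. LGALS1, the most abundant of the list, had 766 and 970 TPM.

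**Figure D5:**
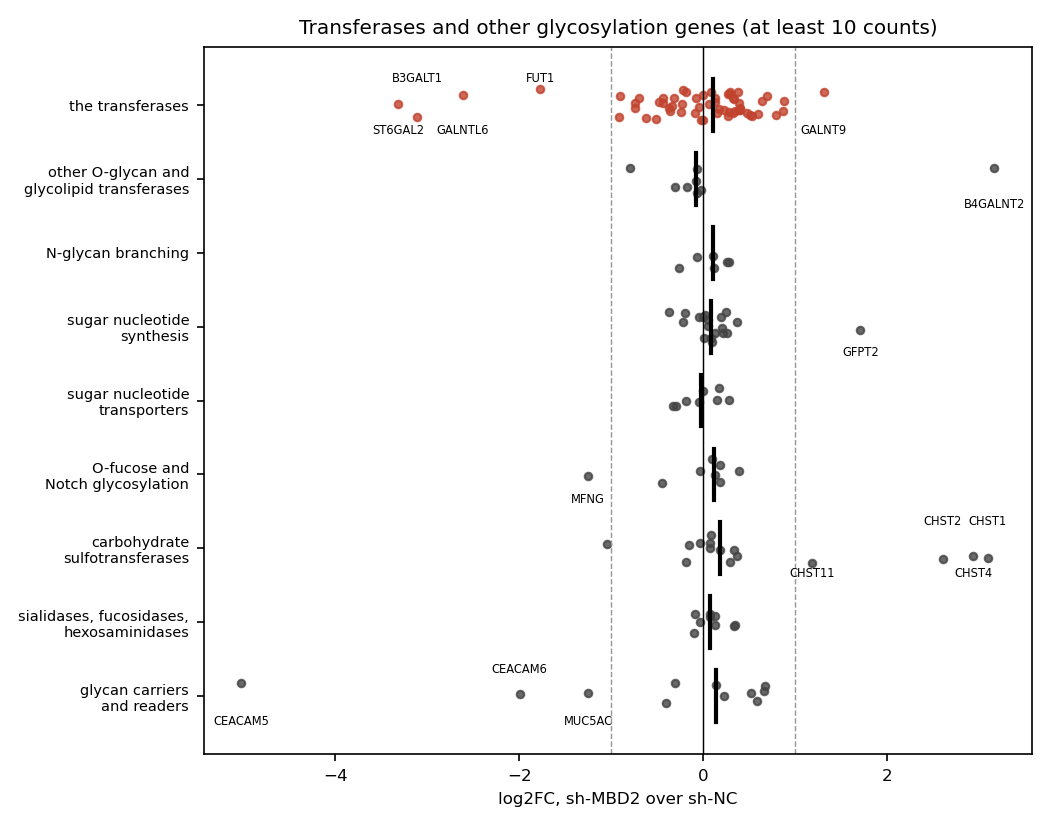
Change of the transferases and of 8 lists of other glycosylation genes. The horizontal axis is log2FC, sh-MBD2 over sh-NC, each point is 1 gene with at least 10 counts, black bars are list medians, and dashed lines mark 1 and -1. List medians lie between -0.08 and 0.18, and the genes past the dashed lines with the largest changes are CEACAM5 at -5.02 and B4GALNT2 at 3.16.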

How the data were processed

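RNA-seq of 1 sh-NC and 1 sh-MBD2 TFK1 library was deposited by the authors as raw counts by gene and, in a separate table, as TPM. Per the submitters' processing notes the tools were fastp, HISAT2 2.1.0, featureCounts and DESeq 1.18.1, with build GRCh38.p13. Annotation, strand use and counting options are not given in the sources used here. The deposited TPM was recorded as a score because repeated lines lift the column sum above its nominal total. With 1 line per symbol it sums to 1000000 in each library. The coordinates of the table matched none of the 77 members in a GRCh38 annotation by start or end, so only distances within the table are given.

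Of 63723 lines, 46 without a gene were left out, and 1 line per symbol gave 56638 genes. Depth was 14728814 and 14467406 counts. TMM library sizes (edgeR 4.0.16, R 4.3.3) scaled the counts, and log2FC used a prior count of 0.5 in proportion to library size. Genes under 10 counts over both libraries were left out. The split of a gene's reads gave an exact Clopper-Pearson interval (scipy 1.17.1) at 95%, which covers counting error only. A count of 0 allows up to 3 counts. With 1 library per condition no test was made, and the steps were tested on simulated data. Named genes were the members and other-list genes past 1 or -1, members of at least 100 counts with a log2FC of 0.5 or more in size, and the most abundant of each family or list. Other members were added for their levels. Neighbouring genes and ratios between members were chosen after their values were seen. Of the other-gene lists, 2 genes are not reported here and were taken out of their lists. Members and lists were chosen with earlier results of these data known. Alternatives were DESeq2 1.42.0 size factors, total counts, upper-quartile factors, TPM plus 0.1 or 1, and prior counts of 2 and 0.1. Filters of 1 and 100 counts summed over both libraries were also used.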

Additional observations from a re-analysis of the deposited data

How the results depend on the processing

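Each condition had 1 library, so variation between cultures is not known and no interval covers it. Members with few counts, such as B3GALT1, GALNTL6 and FUT1, are the least precise. Under DESeq2 size factors, total counts, upper-quartile factors, TPM plus 0.1, and prior counts of 2 and 0.1, the members past 1 and -1 stayed at 1 above and 4 below. With log2 of TPM plus 1 they were 0 above and 2 below (all genes: 374 and 340, against 961 and 890), since the pseudocount shrinks low genes. With a filter of 1 count they were 4 above and 7 below (all genes: 4523 and 4303). With a filter of 100 counts they were 1 above and 1 below (all genes: 213 and 127), as each filter changes which genes enter. These filters apply to counts summed over both libraries. Among members that reach 100 counts in either library, 0 were above 1 and 1 was below -1. The log2 ratio of summed ST6GAL levels was -1.93 with TPM and -2.19 with summed CPM, which is not per length. Of 525 values for single members under the alternatives, 522 moved by less than the counting interval. The other 3 came with TPM plus 1, where B3GALT1 was at -0.70, GALNTL6 at -1.04 and ST6GAL2 at -2.91. Among single members the sign changed for GALNT10 alone, from -0.00 to 0.01 with DESeq2 size factors. Family medians turned sign with the filter of 1 count for ST8SIA (-0.13 to 0.48), ST6GALNAC (0.29 to -0.03) and B3GNT (0.27 to -0.01), and with that of 100 counts for B3GALT (-0.09 to 0.57) and GALNT (-0.11 to 0.06). With CPM in place of TPM, the log2 ratios of summed levels turned from -0.00 to 0.02 for GALNT, from -0.01 to 0.05 for B3GNT and from 0.09 to -0.08 for all sialyltransferases. No paired analysis was possible because sh-NC and sh-MBD2 share fewer than 2 replicate numbers.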

Other observations

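The pathway annotation in the deposited table places members beside other enzymes of the same product. Of 14 genes annotated to keratan sulfate synthesis, a sulfated lactosamine chain, 10 are members, and all 14 had at least 10 counts. Of these, 7 had counting intervals wholly above 0 and 1 wholly below, with a median log2FC of 0.33, beside 19.7% and 18.4% of all genes with at least 10 counts. The 3 above 1 were the sulfotransferases CHST1, CHST2 and CHST4, and the one wholly below 0 was B4GALT4. Of 13 tested genes annotated to ganglio-series glycolipids, 7 lay wholly above 0 and 1 wholly below, with a median of 0.29. Those above include ST3GAL5, ST3GAL2 and ST3GAL1, and the one below was B4GALNT1, the GM2 and GD2 synthase. Of 19 tested genes of lacto and neolacto glycolipids, 4 lay wholly above 0 (B3GALT5, B3GNT5, B4GALT1 and ST3GAL4) and 3 wholly below (B3GALT1, B3GNT3 and B4GALT4), with a median of -0.05. Of 25 tested genes of mucin-type O-glycans, 8 lay wholly above 0 and 6 wholly below, with a median of -0.03. These 4 sets were picked from 13 with glycan or proteoglycan annotations after the values were known, share genes with each other and with the lists above, and were not tested. The shares of 19.7% and 18.4% of all genes apply to each of these sets. Among genes that reach 100 counts in either library the shares were 25.4% and 23.8%, and several sets lie near them. Among the other sets, chondroitin sulfate had 8 wholly above 0 and 1 wholly below of 20. Other glycan degradation had 7 and 0 of 16, and globo-series glycolipids 5 and 0 of 11. N-glycan synthesis had 13 and 6 of 46, heparan sulfate 5 and 3 of 16, and mannose-type O-glycans 5 and 4 of 22. Other O-glycan types had 6 and 4 of 21, proteoglycans in cancer 55 and 48 of 165, and glycosaminoglycan degradation 3 and 4 of 16.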
